A study of Rattus norvegicus with 10 samples.

Results

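The endoplasmic reticulum chaperones and the genes of the unfolded protein response were described in rat testis on postnatal day 6. The set had 33 member genes in 4 branches by role: 17 folding factors, 7 genes of protein degradation, 4 genes of the sensor branch, Xbp1 included, and 5 genes of the Atf4 arm. Probes were assigned by the RefSeq transcript that the array design gives for each. In this way 34 probes were found for 30 of the 33 genes, out of 30367 probes on the array. Manf, Edem1 and Derl2 had no matched probe and are not analysed here. All 34 member probes passed the filter on dim probes, which required a signal well above background on at least 5 of the 10 arrays. They were well above background on all 10 arrays, except the probe of Ern1, which was so on 4 C arrays and 5 T arrays.

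Each of the 10 one-colour arrays carried testis RNA from offspring of 1 sire code, and the codes held the letter C on 5 arrays and T on 5. All pups were males of a cross between Brown Norway fathers and Sprague Dawley mothers. The series design names 5 fathers given saline and 5 given BEP over 9 weeks, with a further 9 weeks of recovery, and reading C as saline and T as BEP is an inference that no label states. BEP is the usual abbreviation of bleomycin, etoposide and cisplatin, a chemotherapy of testicular cancer, and the labels do not name the drugs. Pups per array and the meaning of the remaining characters of the codes are not given in the sources used here, so p-values measure the spread between these 10 samples. The comparison asks whether pups' testes differ by their father's treatment. Arrays differed in brightness, with a 75th percentile between 1525 and 2686 units, and 70.4% to 74.8% of probes were well above background. Slide 1 held C replicates 1 to 3 and T replicates 1 and 2, and slide 2 held C replicates 4 and 5 and T replicates 3 to 5. Markers of Sertoli, germ and Leydig cells were measured in this tissue (13 of 15, 13 of 14 and 9 of 10 listed genes tested). In whole testis, fewer cells of a type and less RNA per cell cannot be told apart.

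Proteins that enter the secretory pathway fold in the endoplasmic reticulum with the help of BiP (Hspa5), other chaperones and disulfide isomerases. When unfolded proteins accumulate, the membrane sensors IRE1 (Ern1), ATF6 and PERK (Eif2ak3) are activated. IRE1 splices the Xbp1 mRNA, ATF6 is cut into a transcription factor, and PERK phosphorylates eIF2 alpha, which favours translation of ATF4. XBP1 and ATF6 raise chaperones and degradation genes, while ATF4 raises CHOP (Ddit3) and enzymes of amino acid metabolism such as Asns. In the immature testis, Sertoli cells secrete large amounts of protein, anti-Müllerian hormone among them. The arrays measured mRNA levels, and neither Xbp1 splicing nor phosphorylation nor cleavage of ATF6.

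The branches differ in the DNA elements of their promoters. ATF6 and XBP1 act through the endoplasmic reticulum stress element (ERSE), CCAAT and CCACG with 9 bases between, its compact form ERSE-II, ATTGG and CCACG with 1 base between, and the UPRE, TGACGTGG. ATF4 binds the CARE, TGATGNAA. The RefSeq promoter table (assembly GRCr8) holds 250 bases before to 50 after the start of a gene, and 26 of the 33 members were in it. An exact match to ERSE, on either strand, was found in 8 of the 26 (Hspa5, Hsp90b1, Creld2, Canx, Xbp1, Dnajc3, Calr and Derl3), against 0.0765% of all 27457 promoters. ERSE-II was found in 3 (Hyou1, Dnajb11 and Herpud1), against 0.0619%. UPRE was found in Hyou1, where it overlaps an ERSE-II, against 0.681%, and CARE in 3 (Chac1, Herpud1 and Trib3), against 4.16%. The shares over all promoters include the members, which were listed as genes of this response, so the contrast describes the list and tests nothing. A match describes the letters of this window and is not evidence of binding. Elements of 10 genes with ERSE or ERSE-II are shown because ATF6 and XBP1 act through these letters. Capitals mark the element, lower case the 10 bases on each side, and all are written 5′ to 3′ on the strand of the gene, so elements on the other strand appear reversed.
Hspa5 ERSE, chr3:38452963.0-38453001.0 + strand: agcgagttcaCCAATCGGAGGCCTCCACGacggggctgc
Hsp90b1 ERSE, chr7:23012441.0-23012479.0 - strand: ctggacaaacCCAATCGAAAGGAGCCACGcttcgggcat
Hsp90b1 ERSE, chr7:23012337.0-23012375.0 - strand: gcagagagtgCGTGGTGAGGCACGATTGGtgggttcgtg
Creld2 ERSE, chr7:121789229.0-121789267.0 + strand: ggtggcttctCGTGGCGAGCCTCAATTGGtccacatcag
Calr ERSE, chr19:40213125.0-40213163.0 + strand: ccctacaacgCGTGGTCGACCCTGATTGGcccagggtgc
Dnajc3 ERSE, chr15:102432524.0-102432562.0 + strand: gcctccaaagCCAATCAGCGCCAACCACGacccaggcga
Derl3 ERSE, chr20:12766591.0-12766629.0 - strand: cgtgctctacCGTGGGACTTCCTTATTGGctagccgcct
Xbp1 ERSE, chr14:84604548.0-84604586.0 + strand: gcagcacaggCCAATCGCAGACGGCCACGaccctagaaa
Herpud1 ERSE-II, chr19:10614811.0-10614841.0 - strand: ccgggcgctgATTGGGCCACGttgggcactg
Dnajb11 ERSE-II, chr11:91672790.0-91672820.0 - strand: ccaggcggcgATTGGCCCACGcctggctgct
Hyou1 ERSE-II, chr8:53602684.0-53602714.0 + strand: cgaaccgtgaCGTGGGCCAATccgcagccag
Hyou1 ERSE-II, chr8:53602784.0-53602814.0 + strand: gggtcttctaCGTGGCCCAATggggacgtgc
The CARE of the Atf4 arm and of Herpud1 are shown for contrast.
Chac1 CARE, chr3:126795954.0-126795981.0 + strand: ttctccgccgTTGCATCActcctgctag
Trib3 CARE, chr3:161275537.0-161275564.0 - strand: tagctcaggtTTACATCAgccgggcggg
Herpud1 CARE, chr19:10614874.0-10614901.0 - strand: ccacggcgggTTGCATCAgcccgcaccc

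The promoter of Hspa5, the most studied target, is given in full for the 250 bases before the start. Capitals mark the exact match to ERSE, 43 to 25 bases before the start, and inexact copies were not searched for.
Hspa5 promoter, chr3:38452766-38453015 + strand: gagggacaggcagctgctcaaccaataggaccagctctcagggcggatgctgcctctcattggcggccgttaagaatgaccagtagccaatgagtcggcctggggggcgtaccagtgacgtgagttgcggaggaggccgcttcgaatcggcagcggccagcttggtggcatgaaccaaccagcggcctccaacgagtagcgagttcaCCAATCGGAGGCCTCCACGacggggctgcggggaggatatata
Of the elements in members, the ERSE of Hspa5, the second ERSE of Hsp90b1 and that of Xbp1 began 43, 72 and 65 bases before the start, those of Creld2, Dnajc3 and Derl3 between 133 and 154 bases before it, and that of Calr 232 bases before it. The first ERSE of Hsp90b1 began 176 bases before the start. Of the ERSE-II, that of Dnajb11 reached the start itself, that of Herpud1 began 124 bases before it, and those of Hyou1 188 and 88 bases before it.

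**Figure D1:**
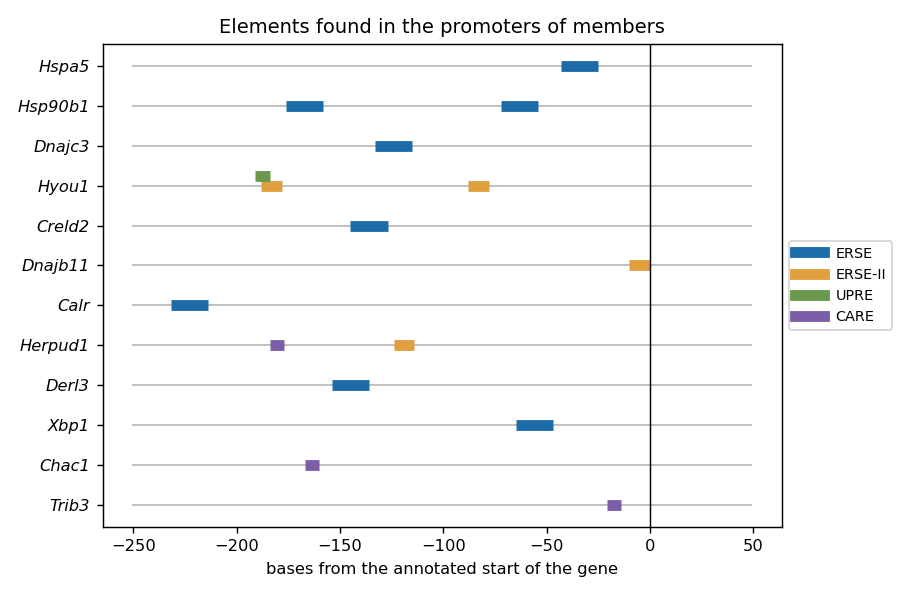
Position of each element in the promoters of 12 members, in bases from the annotated start of the gene (x axis), 1 line per gene. Bars span the element, coloured by type; ERSE or ERSE-II lie in 10 of the genes drawn, CARE in 3 and UPRE in Hyou1 alone.

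Most members stood slightly lower in the T group. Of the 30 measured genes, 25 had a lower mean on T arrays (83.3%), against 53.9% of the 11560 genes tested, with 1 probe, the one with the highest mean, standing for each gene. Their median log2 difference, T minus C, was -0.11, against -0.009 for all genes. The differences were small, from -0.23 (Canx) to 0.14 (Atf4), while the median SD within groups was 0.13 for the members and 0.14 for all genes. No probe passed the test: with limma and Benjamini-Hochberg adjustment over all 21891 probes tested, 0 (0%) had an adjusted p under 0.05, the lowest adjusted p was 0.9985, and 869 had an unadjusted p under 0.05. At an unadjusted p under 0.05, 2 of 30 members were lower in T (Pdia3 and Herpud1) against 2.04% of all genes, and 0 were higher against 1.97%. With slide as a block, 5 of 30 were lower at that unadjusted threshold (Hspa5, Sdf2l1, Pdia3, Herpud1 and Derl3) against 2.19% of all genes, and again no probe passed after adjustment. Herpud1 alone among the members had all T arrays below all C arrays, which held for 0.536% of all genes, and 0 members had all T arrays above all C arrays, which held for 0.242%. The 95% confidence interval lay within a 1.5-fold difference for 29 of the 30 members, Ern1 being the exception, and for 10434 of the 11560 genes. Members move together on an array, so the count of 25 is not 25 independent observations, and no test of the set was made.

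**Figure D2:**
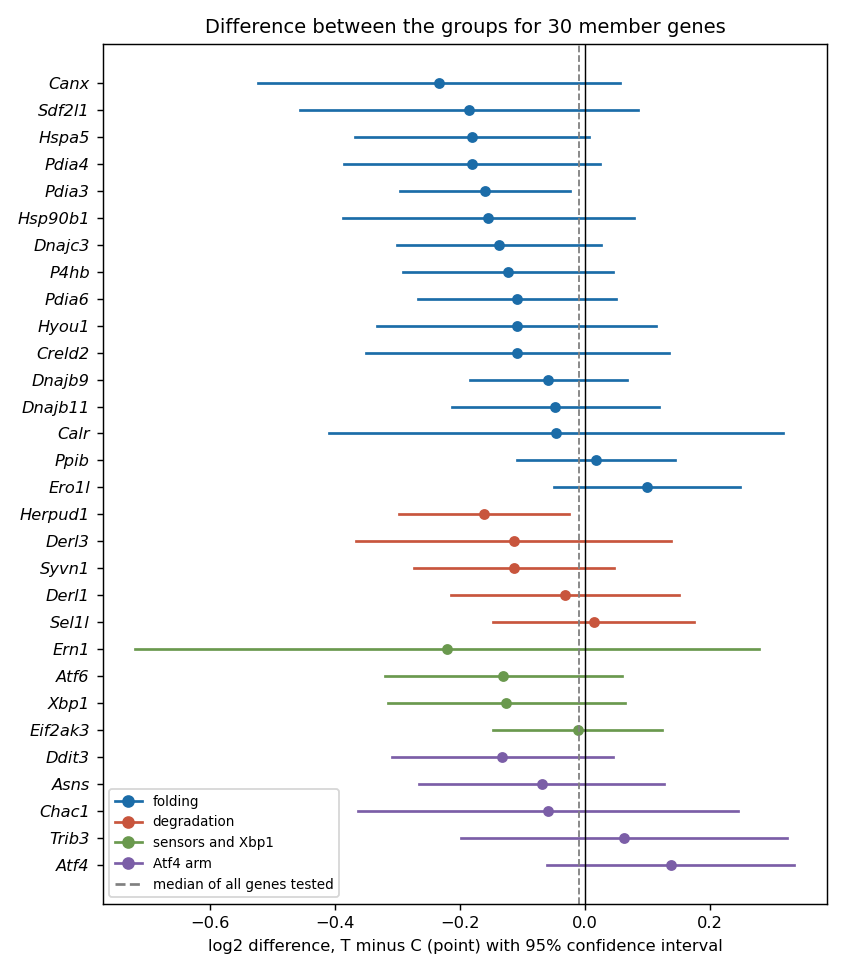
Log2 difference, T minus C (x axis), of the 30 measured members with its 95% confidence interval, 5 arrays per group, ordered by branch. The points lie between -0.23 and 0.14, 25 of them below 0, and the intervals of Pdia3 and Herpud1 do not reach 0.

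The direction was the same on both slides, with a larger size on slide 2, a difference between slides that was not tested. Within slide 1 the median difference of members was -0.07 and 24 of 30 were lower (80% against 45.1% of all genes). Within slide 2 it was -0.15 and again 24 were lower (80% against 56.9%). Per array, the median deviation of members from their own means was -0.04, 0.05, -0.04, 0.08 and 0.10 on C replicates 1 to 5, and -0.02, -0.05, 0.01, -0.05 and -0.15 on T replicates 1 to 5. The groups therefore overlapped: C replicates 1 and 3 lay among the T arrays, C replicate 5 was highest and T replicate 5 lowest. On T replicate 5, 24 of 30 members were below their own mean, and on C replicates 4 and 5 only 7 were. Without T replicate 5 the median difference was -0.08 with 25 of 30 lower, and without C replicate 5 it was -0.09 with 25 lower.

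**Figure D3:**
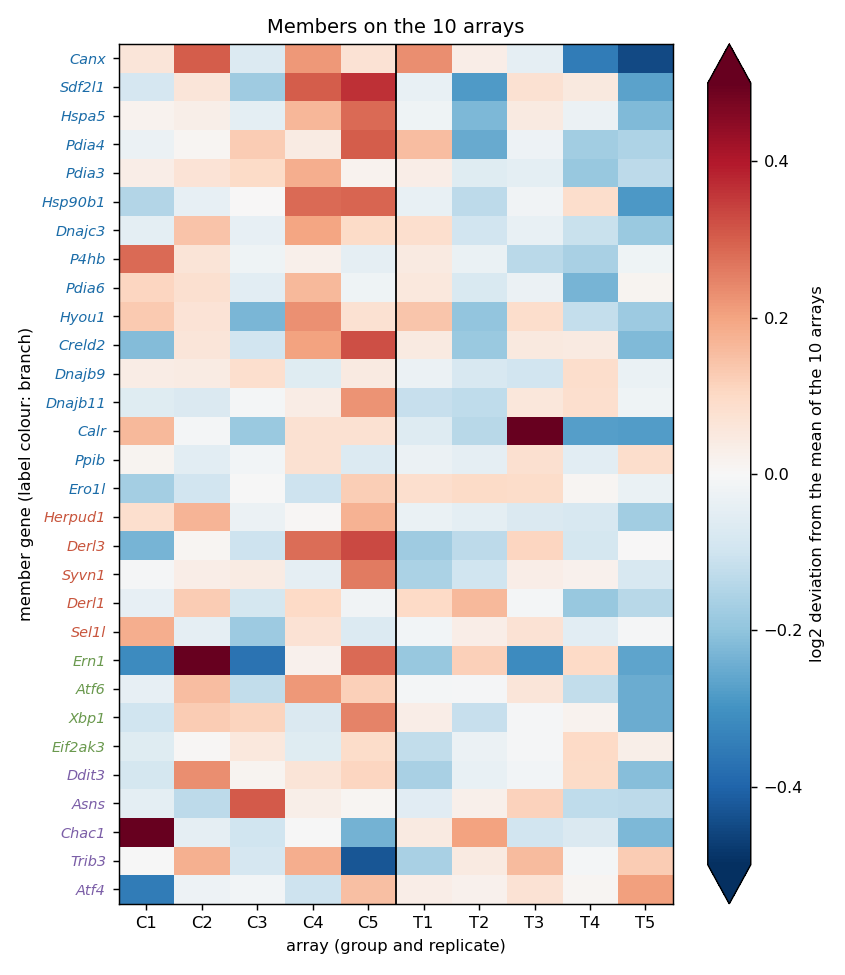
Log2 deviation of each member (rows, label colour by branch) from its mean over the 10 arrays (columns, C left of the line, T right); red is higher, blue lower, and the scale stops at 0.5. Red prevails on C4 and C5, where 7 of 30 members lay below their own mean, and blue on T5, where 24 did.

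Among the folding factors, 14 of 16 were lower in T, with a median of -0.12 (-0.06 within slide 1 and -0.22 within slide 2). At an unadjusted p under 0.05, 1 of 16, Pdia3, was lower, against 2.04% of all genes. Hspa5, which encodes BiP, the Hsp70 chaperone of this compartment, had log2 levels of 4.12, 4.13, 4.05, 4.27 and 4.39 on C replicates 1 to 5 and 4.08, 3.88, 4.15, 4.07 and 3.88 on T replicates 1 to 5. All levels here are log2 signals relative to the 75th percentile of the array. Every T array lay below the C mean and 2 lay below every C array, while the other 3 overlapped with the C group. BiP mRNA was 1.13-fold higher in the C group (T minus C -0.18 ± 0.08, SE; limma adjusted p = 0.9985; exact permutation p = 0.0794, two-sided).

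Hsp90b1, which encodes Grp94, the Hsp90 chaperone of the endoplasmic reticulum, stood at 2.18, 2.28, 2.33, 2.61 and 2.62 on the C arrays and at 2.29, 2.19, 2.31, 2.41 and 2.04 on the T arrays. C replicates 4 and 5, both on slide 2, were above all other arrays, and the other C arrays overlapped with T. The difference was -0.15 ± 0.11 over all arrays (exact permutation p = 0.198), -0.02 within slide 1 and -0.36 within slide 2. Pdia4, a disulfide isomerase, stood at -0.85, -0.81, -0.69, -0.78 and -0.52 on the C arrays and at -0.67, -1.07, -0.84, -0.99 and -0.97 on the T arrays. Here 3 T arrays were below every C array, while T replicate 1 was above all C arrays but replicate 5 (difference -0.18 ± 0.09, exact permutation p = 0.0952).

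Pdia3, the disulfide isomerase that works with calnexin and calreticulin, had a narrower spread. Its levels were 1.40, 1.43, 1.46, 1.54 and 1.38 on the C arrays and 1.39, 1.30, 1.31, 1.17 and 1.23 on the T arrays. Of the T arrays 4 lay below every C array, and T replicate 1 was at the low end of the C range. Pdia3 was 1.12-fold higher in C (T minus C -0.16 ± 0.06; limma p = 0.0258 unadjusted and 0.9985 adjusted; exact permutation p = 0.0159).

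The remaining 12 folding genes had differences from -0.23 to 0.10. Calnexin (Canx), the membrane-bound lectin chaperone, had the largest at -0.23 ± 0.13, 0.03 within slide 1 and -0.43 within slide 2. On its T arrays the level ran from -2.68 to -1.99, a range that encloses all C arrays except C replicate 2 at -1.92. Calreticulin (Calr), its soluble counterpart, differed by -0.05 ± 0.16, and T replicate 3 stood at 2.98 while the other T arrays lay between 2.06 and 2.27. Sdf2l1, which works with the co-chaperone ERdj3, had -0.19 ± 0.12, and its other probe -0.15 ± 0.17. Differences between -0.14 and -0.11 were found for the BiP co-chaperone Dnajc3 (p58IPK), the disulfide isomerases P4hb and Pdia6, the nucleotide exchange factor Hyou1 (Grp170) and the stress-induced Creld2. The J-domain co-chaperones Dnajb9 and Dnajb11 were at -0.06 and -0.05. The genes with a higher mean in T were Ero1a, listed among the members under its older symbol Ero1l, the oxidase that recharges disulfide isomerases (0.10 ± 0.07), and Ppib, the prolyl isomerase cyclophilin B (0.02 ± 0.06).

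**Figure D4:**
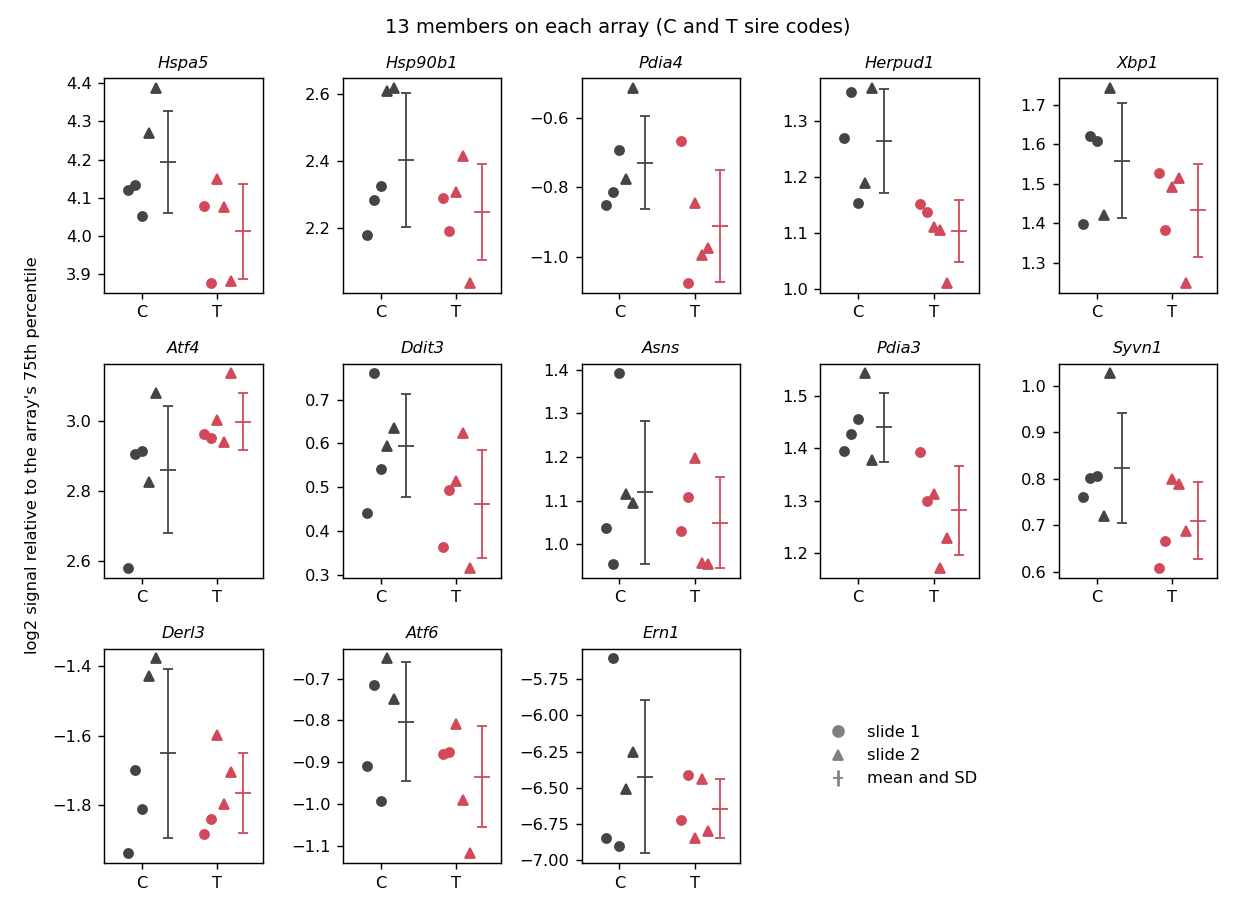
Log2 signal relative to the 75th percentile of the array (y axis, own scale per panel) of 13 members on 5 C and 5 T arrays; circles are slide 1, triangles slide 2, and bars the mean and SD. The groups overlap in every panel but that of Herpud1, whose 5 T arrays lie between 1.01 and 1.15, below all C arrays.

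Of the degradation genes, 4 of 5 were lower in T, with a median of -0.11. At an unadjusted p under 0.05, 1 of 5 was lower, against 2.04% of all genes. Herpud1, a membrane scaffold of the complex that returns misfolded proteins to the cytosol, stood at 1.27, 1.35, 1.153, 1.19 and 1.36 on the C arrays and at 1.151, 1.14, 1.11, 1.11 and 1.01 on the T arrays. The groups did not overlap, although C replicate 3 and T replicate 1 were all but equal. Herpud1 was 1.12-fold higher in C (T minus C -0.16 ± 0.06; limma p = 0.0245 unadjusted and 0.9985 adjusted; exact permutation p = 0.00794). That exact p is the smallest that 252 splits of the arrays can give. The difference was -0.11 within slide 1 and -0.20 within slide 2.

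Syvn1, which encodes the ubiquitin ligase Hrd1, stood at 0.76, 0.80, 0.81, 0.72 and 1.03 on the C arrays and at 0.61, 0.67, 0.80, 0.79 and 0.69 on the T arrays. C replicate 5 was alone at the top, and the other C arrays overlapped with T. The difference was -0.11 ± 0.07 (exact permutation p = 0.0873) and -0.06 without C replicate 5. Derl3, a derlin of the channel to the cytosol, stood at -1.94, -1.70, -1.81, -1.43 and -1.38 on the C arrays and at -1.88, -1.84, -1.60, -1.80 and -1.70 on the T arrays. The T arrays all lay inside the C range (difference -0.11 ± 0.11, exact permutation p = 0.373), and a further probe of Derl3 gave -0.17 ± 0.15. The difference of Derl3 was -0.05 within slide 1, -0.30 within slide 2, -0.17 with slide as a block and -0.05 without C replicate 5. Derl1, another derlin, was at -0.03 ± 0.08, and Sel1l, the adaptor of Hrd1, at 0.01 ± 0.07 with -0.06 ± 0.14 for its other probe.

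All 4 members of the sensor branch had a lower mean in T, with a median of -0.13. At an unadjusted limma p under 0.05 there were 0 (all genes: 2.04% lower, 1.97% higher). Xbp1, the transcription factor whose mRNA IRE1 splices, stood at 1.40, 1.62, 1.61, 1.42 and 1.74 on the C arrays and at 1.53, 1.38, 1.49, 1.51 and 1.25 on the T arrays. The groups overlapped, with 2 T arrays below every C array (difference -0.13 ± 0.09, exact permutation p = 0.151). Atf6 stood at -0.91, -0.71, -0.99, -0.65 and -0.75 on the C arrays and at -0.88, -0.87, -0.81, -0.99 and -1.12 on the T arrays. Only T replicate 5 was below the C range, and the difference of -0.13 ± 0.09 (exact permutation p = 0.159) was -0.005 within slide 1 and -0.27 within slide 2. A further probe of Atf6 gave -0.08 ± 0.12.

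Ern1, which encodes IRE1 alpha, was near the background, at -6.85, -5.61, -6.90, -6.51 and -6.25 on the C arrays and at -6.72, -6.42, -6.85, -6.44 and -6.80 on the T arrays. C replicate 2 stood far above the other arrays, and the difference was -0.22 ± 0.23 (exact permutation p = 0.476) and -0.02 without that array. Eif2ak3, which encodes PERK, differed by -0.01 ± 0.06.

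The Atf4 arm showed no common direction, with 3 of 5 genes lower in T and a median of -0.06. At an unadjusted limma p under 0.05 there were 0 (all genes: 2.04% lower, 1.97% higher). Atf4 itself, a transcription factor controlled largely by translation, stood at 2.58, 2.91, 2.92, 2.83 and 3.08 on the C arrays and at 2.96, 2.95, 3.00, 2.94 and 3.14 on the T arrays. Every T array was above the C mean, but C replicate 5 lay among them and C replicate 1 was far below all other arrays. The difference was 0.14 ± 0.09 (exact permutation p = 0.167) and 0.07 without C replicate 1. Ddit3, which encodes the transcription factor CHOP, stood at 0.44, 0.76, 0.54, 0.59 and 0.63 on the C arrays and at 0.36, 0.49, 0.51, 0.62 and 0.32 on the T arrays. Only T replicates 1 and 5 were below the C range (difference -0.13 ± 0.08, exact permutation p = 0.135).

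Asns, which encodes asparagine synthetase, stood at 1.04, 0.95, 1.39, 1.11 and 1.10 on the C arrays and at 1.03, 1.11, 1.20, 0.96 and 0.95 on the T arrays. C replicate 3 was alone at the top. The difference of -0.07 ± 0.09 (exact permutation p = 0.516) came to -0.001 without that array. Trib3, a pseudokinase, differed by 0.06 ± 0.12, and Chac1, which degrades glutathione, by -0.06 ± 0.14.

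The members with an ERSE or ERSE-II were compared with the others as a description. All 11 had a lower mean in T, against 53.9% of all genes tested, with a median of -0.13 and a range from -0.23 (Canx) to -0.05 (Calr, SE 0.16). Within slide 1 Canx (0.03) and Creld2 (0.01) were higher in T and the rest lower, and within slide 2 all were lower. Members move together on an array, so the 11 are not independent observations. Of the 13 measured members whose promoter held neither, 9 were lower, with a median of -0.06, and of the 6 whose promoter was not in the RefSeq set 5 were, with a median of -0.12. The 13 include all 5 genes of the Atf4 arm, so the split by element is in part a split by branch. Over all genes tested, 15 promoters with an ERSE had a median of -0.07 and 10 with an ERSE-II had -0.06, and these include the members.

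Members also varied together from array to array. Pearson correlations with Hspa5 were computed over the 10 arrays for the other 29 members, with permutation p-values and Benjamini-Hochberg adjustment over these 29 relations. Values of an array share their RNA sample and scaling. The p-values belong to values that were not centred, so differences between groups and slides enter them. Sdf2l1 had r = 0.953 (permutation p = 8e-05, adjusted 0.00232; Spearman's rho = 0.952, permutation p = 9e-05, adjusted 0.00261), and none of the 11526 other genes with values on all arrays had a higher r with Hspa5. Leaving out C replicate 5 and T replicate 2, which were farthest from the median of Hspa5, r was 0.906, and after centring within slide and group it was 0.929. Creld2 had r = 0.868 (permutation p = 0.00137, adjusted 0.0199; rho = 0.842, p = 0.00363, adjusted 0.0526) and 0.743 without the same arrays. Hsp90b1 had r = 0.857 (permutation p = 0.00325, adjusted 0.0314), but its rho was 0.6 (permutation p = 0.0731, adjusted 0.212). Without the same arrays the r of Hsp90b1 was 0.816. After centring within slide and group r was 0.811 for Creld2 and 0.654 for Hsp90b1. For the other 26 members the adjusted p was 0.0735 or higher.

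The median r with Hspa5 was 0.485 over the 29 members and 0.005 over the other genes. A value above 0.6 was found for 12 members (41.4%) against 4.31% of the other genes. They were Sdf2l1, Creld2, Hsp90b1, Pdia4, Dnajc3, Hyou1 and Dnajb11 among the folding factors, Syvn1, Derl3 and Herpud1 among the degradation genes, and the transcription factors Atf6 and Xbp1. Without C replicate 5 and T replicate 2, 6 of these 12 stayed above 0.6, while Dnajb11 came to 0.199, Syvn1 to 0.222, Pdia4 to 0.383, Xbp1 to 0.387, Derl3 to 0.457 and Herpud1 to 0.572. After centring within slide and group 8 of the 12 stayed above it, while Derl3 came to 0.129, Syvn1 to 0.44, Dnajb11 to 0.531 and Atf6 to 0.547. Counted over all 29 members, 9 (31.0%) had r above 0.6 without C replicate 5 and T replicate 2, against 9.02% of the other genes. After centring 9 (31.0%) did, against 8.43% of the other genes. Over all 29 members the median was 0.384 without these arrays (other genes 0.092) and 0.329 after centring (other genes -0.001). Of the Atf4 arm, Ddit3 had r = 0.546, Asns 0.114, Atf4 -0.138, Chac1 -0.17 and Trib3 -0.411 (adjusted permutation p from 0.225 to 0.869). With Asns in place of Hspa5, 0 of 29 members had r above 0.6, against 1.02% of the other genes, and 0 had an adjusted permutation p under 0.05. The median r with Asns was 0.036 (other genes -0.063), and 0.278 (other genes 0.081) without C replicate 3 and T replicate 3, the arrays farthest from the median of Asns. The difference between Hspa5 and Asns in these medians was not tested.

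**Figure D5:**
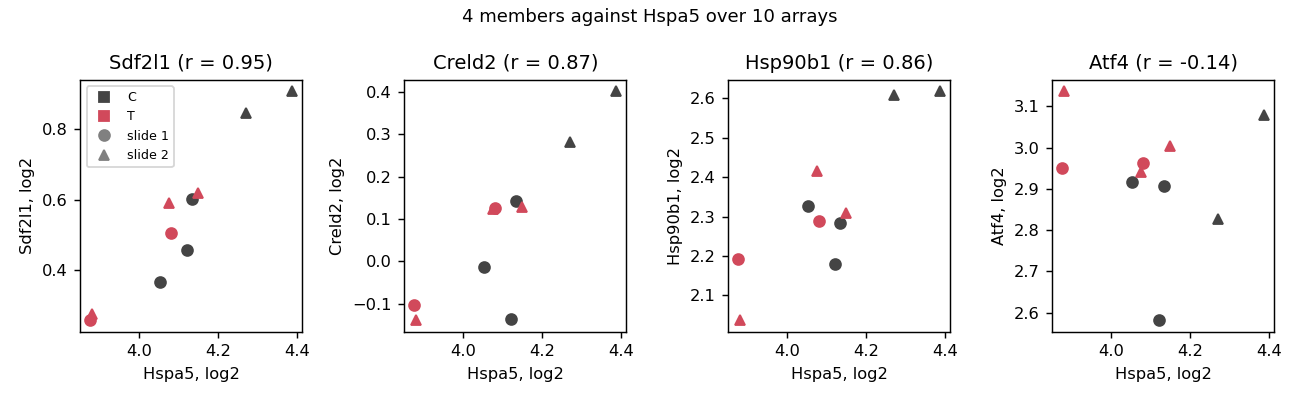
Log2 signal of Sdf2l1, Creld2, Hsp90b1 and Atf4 (y axes) against Hspa5 (x axes) on the 10 arrays; colour is the group and shape the slide. The first 3 lie along a line (r = 0.953, 0.868 and 0.857), with C replicates 4 and 5 at the upper end, and Atf4 does not (r = -0.138).

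Other genes of the same pathways were taken from 7 lists by function. The share lower in T ran from 38.9% to 77.8% over the lists (53.9% over all genes tested), and the median difference from -0.07 to 0.02. In these lists 0 genes had a limma adjusted p under 0.05. An unadjusted p under 0.05 was found for 4 of their genes, and for 464 of all 11560 genes tested. Of 18 other folding and quality control genes, 8 were lower in T (median 0.02), with Fkbp7, a prolyl isomerase, at 0.11 ± 0.07 and the ATPase Tor1a at -0.09 ± 0.06. Of 20 genes of the translocon and of signal peptide handling, 15 were lower (median -0.03), with Ostc, a subunit of the oligosaccharyltransferase, at -0.15 ± 0.08 and Srprb, of the signal recognition particle receptor, at -0.11 ± 0.07. Of 18 other degradation genes, 7 were lower (median 0.01), with the ATPase Vcp at -0.09 ± 0.07 and the ubiquitin-conjugating enzyme Ube2g2 at -0.06 ± 0.05. Of 20 genes of COPII vesicles and retrieval, 9 were lower (median 0.005), with the cargo receptors Tmed10 at 0.07 ± 0.06 and Lman1 at 0.08 ± 0.06.

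Other targets of ATF4 went both ways, 16 of 29 lower with a median of -0.01. An unadjusted limma p under 0.05 was found for 3 of the 29, 1 lower (against 2.04% of all genes) and 2 higher (against 1.97%). Nupr1, a small stress-induced nuclear protein, was 1.42-fold higher in T (0.51 ± 0.15, limma adjusted p = 0.9985), with 0.22 within slide 1 and 0.81 within slide 2. Slc7a11, the cystine transporter, was 1.33-fold higher in C (-0.41 ± 0.15, limma adjusted p = 0.9985), with -0.43 on both slides. Gdf15, a secreted stress-induced factor, was the third at 0.50 ± 0.20 and was named after its value was seen. Among 12 kinases and regulators of eIF2 alpha, 7 were lower (median -0.01). The eIF2 kinase Eif2ak4 (GCN2) was 1.08-fold higher in T (0.12 ± 0.05, limma adjusted p = 0.9985). Its T arrays were all above all C arrays, which held for 0.242% of all genes. The exchange factor subunit Eif2b4 stood at -0.09 ± 0.06. Of 9 other sensors and membrane-bound factors, 7 were lower (median -0.07), with the protease Mbtps2, which cuts ATF6, at -0.26 ± 0.14 and the signalling adaptor Traf2 at -0.10 ± 0.08. Slc7a11, Gdf15 and Mbtps2 were dim, with mean log2 levels of -5.14, -5.95 and -5.33 in C, though well above background on every array.

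Markers of the cell types of the testis also differed in their means, and their part in the values above was not tested. Sertoli cell markers were lower in T for 9 of 13 genes (median -0.05), 4 of 13 within slide 1 (0.09) and 13 of 13 within slide 2 (-0.12), the slide on which the members also differed more. Their summed linear signal, relative to the 75th percentile, ran from 95.1 to 104.2 on C arrays and from 85.5 to 103.4 on T arrays. The Sertoli growth factor Gdnf was at -0.31 ± 0.08 and Kitlg at -0.24 ± 0.10. Gdnf had all T arrays below all C arrays, which held for 0.536% of all genes. Germ cell markers were lower for 2 of 13 (median 0.20), with sums of 23.6 to 27.3 on C and 25.2 to 29.8 on T arrays, Tex101 at 0.24 ± 0.08 and Tdrd1 at -0.24 ± 0.09. Leydig cell markers were lower for 5 of 9 (median -0.05; sums 33.2 to 42.3 and 30.5 to 46.8), with Insl3 at 0.35 ± 0.18 and Hsd3b1 at 0.22 ± 0.13. Peritubular and smooth muscle markers were lower for 5 of 7 (median -0.10; sums 24.7 to 31.8 and 23.1 to 27.2), with Cnn1 at -0.13 ± 0.09 and Tagln at -0.10 ± 0.09.

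Endothelial markers were lower for 1 of 7 (median 0.09; sums 2.56 to 3.25 on C and 2.94 to 3.36 on T arrays), with Pecam1 at 0.21 ± 0.08 and Flt1 at 0.18 ± 0.08. Pecam1 had all T arrays above all C arrays, which held for 0.242% of all genes. Macrophage markers were lower for 5 of 9 (median -0.02; sums 11.3 to 13.7 and 11.4 to 13.3), with Ptprc at 0.17 ± 0.09 and Csf1r at -0.12 ± 0.10. Erythroid markers were lower for 0 of 5 (median 0.28; sums 44.6 to 75.2 and 53.3 to 81.7), with Hemgn at 0.73 ± 0.24 and Alas2 at 0.28 ± 0.15. Skeletal muscle markers were lower for 2 of 6 (median 0.20; sums 0.281 to 0.458 and 0.284 to 0.477), with Actn2 at 0.33 ± 0.10 and Myh8 at 0.24 ± 0.11. Hemgn, Actn2 and Flt1 were dim, with mean log2 levels of -5.85, -5.37 and -5.23 in C. Sdc1, listed as a marker of plasma cells, which make much endoplasmic reticulum, stood at 0.07 ± 0.07, with a mean log2 level of 2.09 in C. Jchain and Mzb1 of the same list were not tested, so Sdc1 is not taken as a measure of plasma cells. Of the markers of the 8 cell types whose sums are given that had a probe, Lhcgr of Leydig cells, Tek of endothelium and Ckm of muscle did not pass the filter on dim probes. The summed signals of C and T arrays overlapped for each of these cell types. A linear sum follows its brightest markers, so the overlap says little about the dimmer ones. Among erythroid markers Hbb had a mean log2 level of 5.85 in C, and the next, Alas2, 0.37. Among germ cell markers Uchl1 had 4.20 in C, and the next, Nanos3, 1.16.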

How the data were processed

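Testis RNA of postnatal day 6 was measured on 10 one-colour Agilent arrays, with 100 ng labelled with Cy3 per the labels' protocols. The deposited scanner files hold spot intensities made with Agilent Feature Extraction 10.7.3.1 per the file headers (10.7 in the submitters' processing notes), background-subtracted and not scaled between arrays. The authors' deposited table holds log2 values centred per probe (r = 0.9978 to 0.9987 with the scanner values, column medians from -0.0169 to 0.0288); its scaling is not known, and it served as an alternative only.

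Each array had 62976 spots. The 4259 controls and spots flagged as outliers (494 to 745 per array) were left out, and 0 were saturated. The processed signal was put on the log2 scale relative to the array's 75th percentile, spots of a probe were averaged, and 21891 of 30367 probes (72.1%) were tested. Accessions gave a gene symbol to 17998 probes (RefSeq, GRCr8). Groups were compared with limma 3.58.1 in R 4.3.3 (lmFit, eBayes, no covariate) over all probes, with exact permutation tests over all splits for single members. The limma step was checked on simulated data with a shift larger than the difference of any member, so the check does not cover differences of their size. Values on every array are given for a panel of 8 genes and, in each branch, up to 3 members with the smallest p; in each other list up to 2 genes with the smallest p are named. The members, lists, elements and rules were chosen with earlier results of these data known. The number of arrays limits the precision. The alternatives changed the background correction, scaling, filters, variance model, slide and sire code terms, the probe per gene or the source of the values, or omitted 1 array. The sequence of 1 promoter element and the values of 1 marker gene are not reported here.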

Additional observations from a re-analysis of the deposited data

Results flagged for a closer look

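On 2 of 60 combinations of a member and a group, 1 array stood far from the other 4 of its group, as judged by its gap to the nearest array over the range of the group. Chance gives about 1 in 20 such groups. Calr stood at 2.98 on T replicate 3, while the other T arrays lay between 2.06 and 2.27. Syvn1 stood at 1.03 on C replicate 5, while the other C arrays lay between 0.72 and 0.81.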

How the results depend on the processing

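Under all 24 alternatives 0 probes passed the adjusted threshold with limma, while 481 (normexp) to 1151 had an unadjusted p under 0.05. The number of members lower in T ran from 21 to 27 and their median difference from -0.154 to -0.066 (leaving out 1 array, 23 to 27 and -0.14 to -0.082). Of the 13 members given per array, 12 kept their direction under every alternative run. Asns stood at 0.057 in the fit with the replicate block on the first number of the sire code, and at -0.11 to -0.001 when 1 array was left out. Differences in the block fit rest on the arrays of numbers 2, 4 and 6, the only numbers found in both groups. C replicate 3, where Asns was highest, therefore does not enter them. That replicate block gave 21 of 30 members lower, a median of -0.119, -0.229 for Hspa5, -0.54 for Ern1 and 0 probes called (698 unadjusted). With slide as a block, 5 of 30 members were lower at an unadjusted p under 0.05, against 2 without it. The C and T arrays that share the numbers 2, 4 and 6 had correlations of -0.512, 0.282 and 0.194 between their deviations. The arrays of number 2 lay on different slides, those of 4 and of 6 on the same slide. These values therefore cannot tell whether the numbers pair the samples. The median correlation of members with Asns was -0.113 after centring within slide and group (other genes -0.122), and the cause was not tested. For normexp the median spot signal took the place of the planned mean. Ern1 had no value in 2 of the 24 alternatives, and signal near background limits its precision.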
